A study of Homo sapiens with 20 samples.

Results

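Long RAD21-free intervals are stretches of at least 300 kb that lay between neighbouring RAD21 peaks of CHM13 cells. They were chosen by measured values, namely the positions of the peaks in the RAD21 list of CHM13 cells on hg38, on chromosomes 1 to 22 and X. An interval was kept when N made up at most 10% of it and when it touched neither a cytogenetic centromere band nor the 5 Mb on either side of one. The list placed 73739 peaks on these chromosomes, which left 73716 intervals with a median length of 14.4 kb. Of these, 1063 reached 300 kb and 899 met the whole rule, or 1.22% of all intervals. A further 121 were dropped for the centromere, 29 for the centromere and N together, and 14 for N alone.

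The study precipitated cohesin subunits with their DNA and sequenced it (ChIP-seq) to map cohesin at and around human centromeres. CHM13 cells come from a complete hydatidiform mole, a conceptus with paternal chromosomes only, and RPE-1 cells from the retinal pigment epithelium, and telomerase (hTERT) was used to immortalise both lines. RAD21, SA1 and SA2 were each precipitated in 3 replicates of CHM13 and 2 of RPE-1, beside libraries of total chromatin (20 libraries together), and no group received a treatment. RAD21 was precipitated with ab992 in CHM13 and ab154769 in RPE-1, so for RAD21 the cell line and the antibody cannot be told apart, whereas SA1 (A302-579A) and SA2 (A302-580A) used the same antibody in both lines. CHM13 chromatin was sheared in another instrument than RPE-1 chromatin and carried a small amount of Drosophila chromatin as an internal control. Each of the 6 peak lists pools the replicates of a line and subunit and gives only the start and end of each peak, so there is no error between replicates and no read depth for any value. The intervals given with densities and shares (95%, exact Poisson for densities, exact conditional for ratios of densities, Wilson for shares) cover counting error only.

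Cohesin is a ring-shaped complex in which RAD21 closes the ring and either SA1 or SA2 (also called STAG1 and STAG2) is bound to it. It holds sister chromatids together and extrudes loops of DNA, and it is commonly halted where the DNA-binding protein CTCF sits, which is why peaks of cohesin mark loop anchors and domain borders. Gene deserts and very long neuronal genes are stretches in which such anchors are typically far apart.

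The intervals are set by the RAD21 peaks at their edges, and most of the sites inside them were peaks of RPE-1 alone (233 of 328), so sequences of both kinds are shown. That count is a description, because the choice barred RAD21 peaks of CHM13 and the SA1 and SA2 peaks that coincide with them. The CTCF core consensus, 12 bases long, was searched on both strands, and only matches without a mismatch counted. A peak without such a match may still hold a CTCF site. The core was held by 8.40% of all RAD21 peaks of CHM13 (6193 peaks). Of the 10 peaks that bound the 5 longest intervals, only those on both sides of the 3.35-Mb interval of chromosome 4 held it. Shown next are isolated RAD21 peaks, which stood alone between neighbouring long intervals, from the 4 longest chains of such intervals by number. They were picked for holding the core, as 4 of the 14 isolated peaks of these chains did (on chromosomes X, 14 and 11, and none on 18). RPE-1 RAD21 peaks with the core, inside intervals where CHM13 had no RAD21 peak, follow. All are from hg38, read 5′ to 3′ on the strand given, with the match to the core in capitals and 30 bases on either side.
Left edge of the chromosome 4 interval, chr4:60805854-60805925, + strand: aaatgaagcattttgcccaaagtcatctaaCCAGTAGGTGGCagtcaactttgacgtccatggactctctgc
Right edge of the chromosome 4 interval, chr4:64158887-64158958, + strand: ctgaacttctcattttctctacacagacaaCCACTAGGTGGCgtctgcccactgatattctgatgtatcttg
Isolated peak on X, chrX:93874722-93874793, + strand: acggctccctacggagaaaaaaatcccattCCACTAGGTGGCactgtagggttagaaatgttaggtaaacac
Isolated peak on 14, chr14:81990423-81990494, + strand: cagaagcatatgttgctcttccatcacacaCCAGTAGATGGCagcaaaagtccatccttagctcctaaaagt
Isolated peak on 14, chr14:82710400-82710471, + strand: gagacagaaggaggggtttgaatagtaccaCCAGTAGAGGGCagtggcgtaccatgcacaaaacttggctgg
Isolated peak on 11, chr11:99016016-99016087, − strand: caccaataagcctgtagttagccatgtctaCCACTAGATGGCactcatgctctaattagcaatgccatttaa
RPE-1 peak on X, chrX:84046551-84046622, + strand: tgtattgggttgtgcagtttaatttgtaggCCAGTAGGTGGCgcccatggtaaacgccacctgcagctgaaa
RPE-1 peak on 9, chr9:117487662-117487733, + strand: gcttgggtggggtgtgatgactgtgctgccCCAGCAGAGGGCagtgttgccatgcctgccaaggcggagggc
RPE-1 peak on 4, chr4:154982618-154982689, + strand: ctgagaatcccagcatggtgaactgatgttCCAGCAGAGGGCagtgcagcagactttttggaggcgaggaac

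The 2 edge sequences of chromosome 4 pointed the same way. In GENCODE, both isolated peaks of chromosome 14 lay in introns of lncRNA genes, the second in LINC02301, and the other sequences shown lay between genes. The RPE-1 peak on X overlapped SA1 peaks of both cell lines although the RAD21 list of CHM13 had none there. A match to the core is a description of the letters and no evidence that CTCF sat there.

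The 899 intervals added up to 619.1 Mb, and their sequence without N (618.7 Mb) made up 23.6% of the 2628 Mb that lay outside the centromere margins, called the eligible genome here. Their median length was 504.5 kb, with quartiles at 377.2 and 800.7 kb and extremes of 300.8 and 3842 kb. At least 500 kb was reached by 452 of them, 1 Mb by 151, 2 Mb by 30 and 3 Mb by 6. The 151 intervals of 1 Mb or more held 240.6 Mb. The 5 shortest members measured 300.8 to 301.8 kb and the 5 intervals just under the threshold 299.1 to 299.7 kb.

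**Figure D1:**
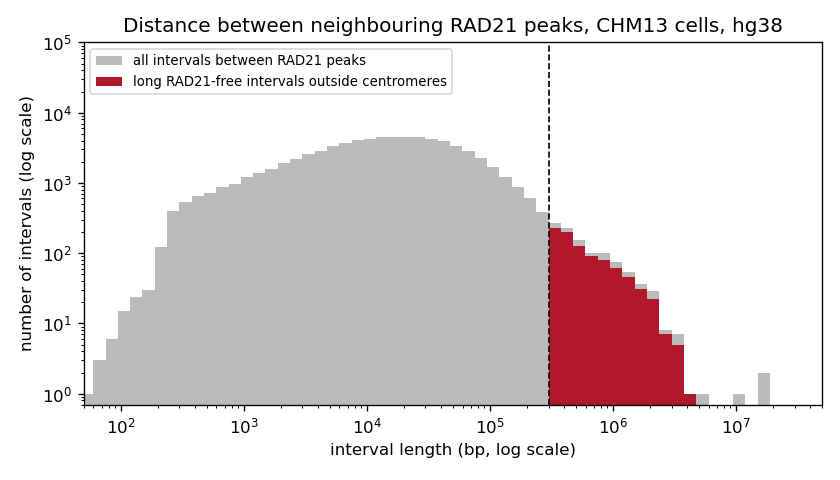
Number of intervals between neighbouring RAD21 peaks of CHM13 cells (y axis, log scale) by their length in bp (x axis, log scale). Grey bars are all 73716 intervals, red bars are the 899 long RAD21-free intervals outside centromeres, and the dashed line marks 300 kb; the long intervals are the right tail of a distribution with a median of 14.4 kb.

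Intervals of this length occurred on all 23 chromosomes, in unequal shares. Chromosome X held the most, 77 intervals with 61.5 Mb, or 44.2% of its eligible sequence against 22.4% over the autosomes. Chromosomes 18 (35.9%) and 13 (34.2%) came next, and the lowest shares were on 17 (10.1%) and 19 (4.42%, 5 intervals), the chromosome known for its gene density. On X every list was sparse. RAD21 of CHM13 had 12.6 peaks per Mb on eligible X against 27.1 on the autosomes (ratio 0.466, 0.445 to 0.489), and RAD21 of RPE-1, which the choice of intervals did not use, had 2.36 against 5.49 (ratio 0.431, 0.385 to 0.480). The X to autosome ratio was 0.530 for SA1 and 0.505 for SA2 in CHM13, and 0.338 and 0.379 in RPE-1.

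**Figure D2:**
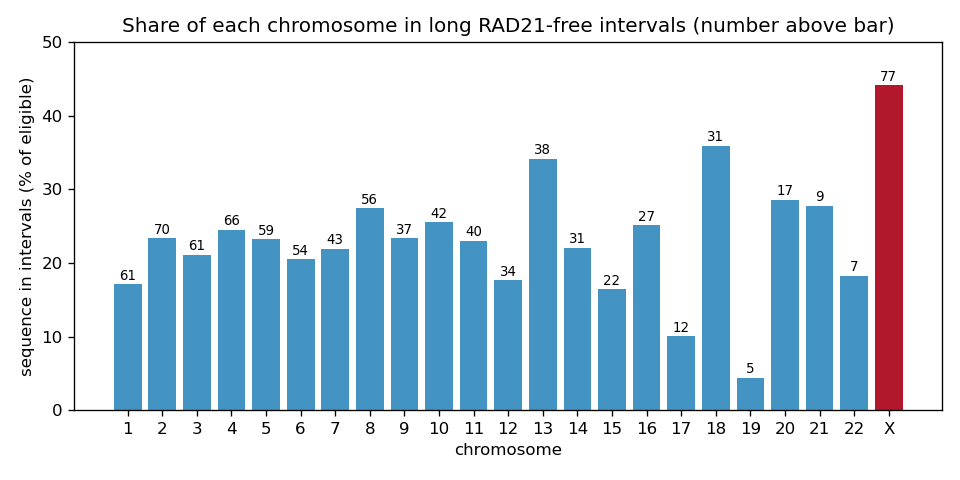
Share of each chromosome's eligible sequence that lay in long RAD21-free intervals (y axis, %), with the number of intervals above each bar. X (red) stands highest at 44.2% and chromosome 19 lowest at 4.42%.

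The longest interval was 3.84 Mb on chromosome 13 (chr13:53782946-57624667) and held starts of 5 protein-coding genes, PRR20A to PRR20E, which are near-identical copies. The second, 3.35 Mb on chromosome 4 (chr4:60806154-64158586), held ADGRL3, which encodes latrophilin 3, an adhesion receptor of synapses. The interval on X (chrX:125998798-129318292, 3.32 Mb) held DCAF12L2, DCAF12L1, PRR32 and ACTRT1, the last an actin-related gene of sperm heads. The fourth (chr9:22470462-25631609, 3.16 Mb) held ELAVL2, an RNA-binding protein of neurons, and IZUMO3, a sperm protein gene. None of these 4 intervals held a peak of any of the 5 other lists.

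The next intervals by length had mixed contents. The fifth (chr7:67484762-70585035, 3.10 Mb) held AUTS2, a gene of brain development. The sixth lay near the short-arm end of chromosome 5 (chr5:1773162-4862380, 3.09 Mb) and held the Iroquois homeobox genes IRX4, IRX2 and IRX1 beside MRPL36 of the mitochondrial ribosome and NDUFS6 of respiratory complex I. The seventh (chr2:3959862-6772991, 2.81 Mb) held SOX11, a transcription factor gene of neural progenitors. The eighth (chr18:64104400-66872277, 2.77 Mb) held the cadherin genes CDH7 and CDH19. The ninth (chr20:14055725-16761030, 2.71 Mb) held FLRT3, an adhesion protein gene, KIF16B, a kinesin gene, SNRPB2 of the spliceosome and OTOR, a gene of the inner ear. The tenth (chr13:81171574-83780122, 2.61 Mb) held no protein-coding gene at all.

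In RPE-1, 8 of these 10 intervals held no RAD21 peak. Over all 899 intervals 134 (14.9%) held such a peak, so by this count the longest were not emptier than the others. The RPE-1 RAD21-free stretch around the longest interval spanned 6.94 Mb, those around the second and the X interval 4.93 and 4.95 Mb, and that around the SOX11 interval 3.45 Mb. The AUTS2 interval differed, since it held 4 RAD21, 5 SA1 and 1 SA2 peaks of RPE-1 and 1 SA2 peak of CHM13, and its longest stretch without a peak of any list was 0.864 Mb. In all, 746 intervals lay wholly within a stretch without an RPE-1 RAD21 peak. Of interval sequence, 96.2% lay in RPE-1 RAD21-free stretches of 300 kb or more against 49.0% of the rest of the eligible genome. Since 97.4% of RPE-1 RAD21 peaks overlapped a CHM13 RAD21 peak, this contrast was largely set by the choice of intervals.

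Peaks of the 5 other lists were scarce inside the intervals. For the CHM13 lists this was largely set by the choice of intervals, because 97.6% of SA1 and 98.5% of SA2 peaks on the eligible genome overlapped a RAD21 peak of the same cells, so their values are descriptions. SA1 of CHM13 had 55 peaks inside, 0.0889 per Mb (0.0670 to 0.116) against 17.2 in the rest, and SA2 had 53 peaks, 0.0857 per Mb against 20.3. In the central 300 kb of the intervals, 871 of 899 had no SA1 peak of CHM13 where 1.72% of the 300-kb windows of the rest had none, and 874 had no SA2 peak where 1.40% of windows had none.

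RPE-1 lists came from libraries that the choice did not use. On the eligible genome, however, 97.4% of their RAD21, 98.0% of their SA1 and 98.8% of their SA2 peaks overlapped a CHM13 RAD21 peak. Their scarcity inside was thus also largely set by the choice, and these values are descriptions too. RAD21 of RPE-1 had 189 peaks inside, 0.305 per Mb (0.264 to 0.352), against 6.86 per Mb in the rest, a ratio of 0.0445 (0.0384 to 0.0514). SA1 of RPE-1 had 134 peaks, 0.217 per Mb against 4.95 (ratio 0.0437, 0.0366 to 0.0518), and SA2 of RPE-1 had 41 peaks, 0.0663 per Mb against 2.95 (ratio 0.0225, 0.0161 to 0.0305). The share of central 300-kb stretches without a peak was 92.7% for RPE-1 RAD21 against 21.6% of windows of the rest, 94.1% for SA1 against 26.4%, and 97.9% for SA2 against 45.9%. No peak of any of the 5 lists lay in 674 intervals (74.97%), which together spanned 433.1 Mb, and no RPE-1 peak lay in 739 (82.2%).

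**Figure D3:**
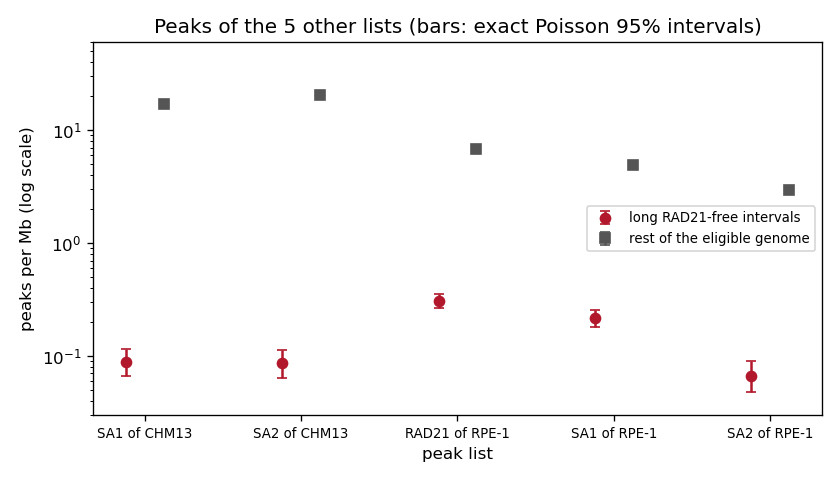
Peaks per Mb of sequence without N (y axis, log scale) for the 5 lists that did not define the intervals, in the 899 long RAD21-free intervals (red circles) and in the rest of the eligible genome (grey squares). Bars are exact Poisson 95% intervals. In every list the intervals lie below the rest, with ratios from 0.0445 for RAD21 of RPE-1 to 0.00421 for SA2 of CHM13. Most peaks of each list overlapped a CHM13 RAD21 peak, so this scarcity was largely set by the choice of intervals.

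The rest of the genome includes the RAD21 peaks of CHM13 themselves, and 97.4% of RPE-1 RAD21 peaks overlapped one of them. When the comparison was limited to peaks that lay apart from every CHM13 RAD21 peak, the direction turned for RPE-1. An interval stays undivided at a site that lacks a CHM13 RAD21 peak. This comparison thus also depends on the choice of intervals, and its values are descriptions. The long intervals cover 23.6% of eligible sequence, and shares are read against that. The eligible genome held 359 such RPE-1 RAD21 peaks, and 189 of them (52.6%, 47.5 to 57.8) lay in the long intervals. Of 205 RPE-1 SA1 peaks lying apart, 134 (65.4%) were in the long intervals, and of 74 SA2 peaks 41 (55.4%). The CHM13 lists went the other way, with 55 of 836 SA1 peaks lying apart (6.58%) and 53 of 616 SA2 peaks (8.60%) in the long intervals.

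Densities were also set out by the length of the interval between CHM13 RAD21 peaks. RPE-1 RAD21 peaks lying apart numbered 0.0603 per Mb (0.0242 to 0.124) in intervals of 1 to 10 kb, 0.0769 per Mb in those of 10 to 20 kb, 0.0374 per Mb (0.0225 to 0.0584) in those of 20 to 50 kb, 0.0669 per Mb in those of 50 to 100 kb, 0.129 per Mb in those of 100 to 200 kb, 0.200 per Mb in those of 200 to 300 kb, 0.259 per Mb in those of 300 to 500 kb and 0.388 per Mb (0.309 to 0.483) in those of 500 to 1000 kb, and then 0.266 per Mb in longer ones. SA1 of CHM13 had 0.267 per Mb in intervals of 1 to 10 kb, between 0.445 and 0.453 per Mb in the 3 classes from 10 to 100 kb, and lower values in each longer class, down to 0.0458 per Mb in those over 1000 kb. Against intervals of 50 to 300 kb, long intervals had 2.76 times as many such RPE-1 RAD21 peaks per Mb (2.19 to 3.48), 4.61 times as many SA1 (3.33 to 6.46) and 2.99 times as many SA2 (1.78 to 5.13). For SA1 and SA2 of CHM13 those ratios were 0.240 (0.178 to 0.319) and 0.370 (0.270 to 0.499). This comparison was added after the values had been seen. By the paper's read totals, the SA1 and SA2 libraries of RPE-1 were sequenced less deeply than those of CHM13. The part of the choice of intervals, of the cell line, of sequencing depth, of shearing and of RAD21 antibody in the comparison was not tested.

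The peaks inside the intervals formed 328 separate sites. Of these, 225 belonged to 1 list, 68 to 2, 29 to 3 and 6 to 4 lists, and 233 were seen in RPE-1 alone, 79 in CHM13 alone and 16 in both. The split by cell line was largely set by the choice, which barred RAD21 peaks of CHM13. Of SA1 and SA2 peaks of CHM13, 97.6% and 98.5% overlapped one. The same split outside the intervals was not counted. RAD21 and SA1 of RPE-1 coincided at 76 sites and all 3 RPE-1 lists at 28. By the choice of intervals, none of the 189 RAD21 and 134 SA1 peaks of RPE-1 or 55 SA1 peaks of CHM13 inside overlapped a CHM13 RAD21 peak. In the rest, 98.8%, 99.3% and 97.7% did. Peaks lying apart outside the long intervals were not compared, so the contrasts that follow cannot be read as particular to the intervals. RPE-1 RAD21 peaks inside the intervals overlapped an RPE-1 SA1 peak in 40.2% of cases (33.5 to 47.3) against 57.0% in the rest, and an SA2 peak in 16.9% against 37.9%. SA1 peaks of CHM13 overlapped SA2 of CHM13 in 23.6% (14.4 to 36.4) against 87.5%. The median width of RPE-1 RAD21 peaks inside was 383 bp against 445 bp, and 14.3% (10.0 to 20.0) held the CTCF core against 23.1%. For RPE-1 SA1 the core was held by 4.48% against 20.7%.

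No interval held more than 5 peaks of a list. The largest number of RPE-1 RAD21 peaks, 5, lay in a 1.43-Mb interval of chromosome 8 with the start of MCPH1, the microcephalin gene (chr8:4997484-6423734). The AUTS2 interval held 4, as did a 1.08-Mb interval with LRATD2 (chr8:125729786-126809730) and a 0.691-Mb interval of chromosome 3 without a protein-coding start (chr3:139938176-140629436). A 1.58-Mb interval of chromosome 2 (chr2:219997846-221573359) held 3. None of the intervals on chromosomes 8, 3 and 2 named here held an SA1 or SA2 peak of CHM13. The RPE-1 RAD21 peaks inside did not crowd at the edges, as 30.2% lay within 100 kb of an edge where 29.0% of interval sequence did, whereas 47.3% of the SA1 peaks of CHM13 lay there. The lengths were unlike, however. Intervals of 300 to 500 kb held 30 of the 55 SA1 peaks of CHM13 and 44 of the 189 RPE-1 RAD21 peaks. Edges make up more of such short intervals, so the 47.3% does not show crowding at edges.

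The RAD21 peaks that bound the intervals overlapped peaks of the other lists more often than the remaining RAD21 peaks did. Isolated peaks, with a long interval on both sides, numbered 155, and 1488 peaks had a long interval on 1 side only. SA1 of CHM13 overlapped 74.2% (66.8 to 80.4) of isolated and 71.4% (69.0 to 73.6) of bounding peaks against 47.3% (46.9 to 47.7) of the other 67576 eligible peaks, and SA2 of CHM13 overlapped 65.8%, 71.5% and 56.8%. RAD21 of RPE-1 overlapped 24.5%, 29.2% and 19.3% of them, and SA1 of RPE-1 31.6%, 25.7% and 13.9%. The CTCF core was held by 26.5% (20.1 to 33.9), 17.2% (15.4 to 19.2) and 8.13% (7.92 to 8.33). A protein-coding gene start lay within 1 kb of 2.58%, 3.56% and 8.40% of them. Median widths were 604, 639 and 730 bp, in the same order, so the group that held the core most often had the narrowest peaks.

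Where the peaks on both sides of an interval held a CTCF core, its orientation could be read. The cores faced each other in 11 of 36 such long intervals (30.6%), pointed away from each other in 6 and the same way in 19. Over all 913 eligible intervals with cores on both sides, 19.6% faced each other. The counting interval of the 30.6% reached from 18% to 46.9% and includes that background.

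Inside the intervals, the density of the core differed from that in other sequence without RAD21 by less than counting error. It occurred 1072 times, 1.73 per Mb against 4.53 in all of the rest (ratio 0.382, 0.359 to 0.407) but against 1.65 in the rest outside RAD21 peaks (ratio 1.05, 0.981 to 1.13). The intervals were poor in G+C. Their median was 37.9%, with a range of 33.5 to 57.3%, against 41.0% in 300-kb windows of the rest, and the central 300 kb of 713 intervals (79.3%) lay under that median. CpG was also scarce, at a median of 0.183 of the number that base composition would give against 0.223.

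**Figure D4:**
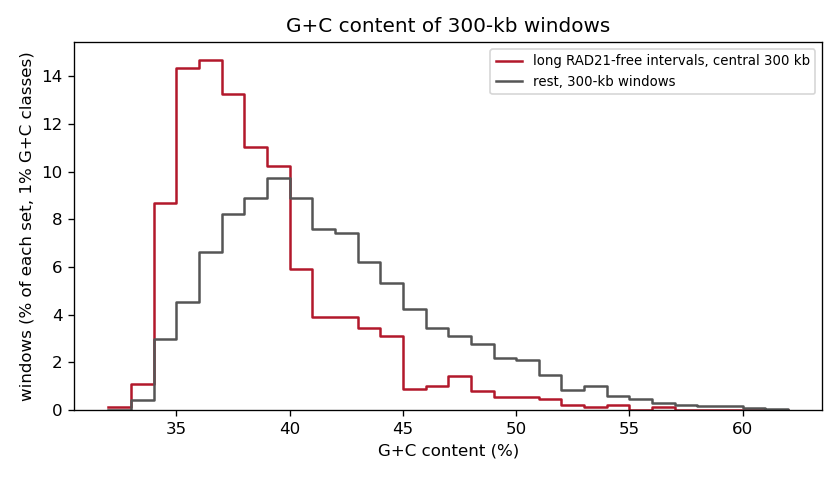
G+C content (x axis, %) of the central 300 kb of the 899 long RAD21-free intervals (red) and of 5996 windows of 300 kb from the rest of the eligible genome (grey), as a share of each set (y axis, %). The intervals are shifted to lower values, with 79.3% of them under the 41.0% median of the rest, and keep a small tail above 45%.

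RPE-1 peaks were also few when sequence of like G+C content was compared, a scarcity again largely set by the choice of intervals. Against windows of the rest in the same class, the RPE-1 RAD21 ratio was 0.0991 (0.0735 to 0.131) in intervals under 37% G+C (325 intervals), 0.0767 at 37 to 40% (323), 0.0567 at 40 to 45% (191) and 0.0406 (0.0237 to 0.0651) at 45% or more (60). The G+C-rich intervals lay nearer to chromosome ends than the others, as 40 of these 60 lay within 10 Mb of one. Their median distance was 4.45 Mb against 43.6 Mb for those under 37%. The placement of G+C-rich windows of the rest was not examined, so this may not be particular to the intervals. Among the G+C-rich intervals was one of 1.60 Mb on chromosome 1 with AJAP1, an adherens junction protein gene, at 47.3% G+C (chr1:3911335-5509825).

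Protein-coding genes were few. The intervals held 984 protein-coding gene starts, 5.30% of the 18567 on the eligible genome, or 1.59 per Mb against 8.75 in the rest (ratio 0.182, 0.170 to 0.194), and 744 protein-coding genes lay wholly inside. Other classes were less reduced, with ratios of 0.525 (0.502 to 0.548) for lncRNA, 0.638 (0.608 to 0.669) for pseudogenes and 0.368 (0.339 to 0.400) for small RNA genes. The choice kept out any start inside a RAD21 peak, and 8.40% of the other 67576 eligible peaks lay within 1 kb of a protein-coding start. Against RAD21-free intervals of 50 to 300 kb, a comparison added after seeing the data, the protein-coding ratio was 0.251 (0.235 to 0.269). No protein-coding gene overlapped 233 intervals (25.9%), 408 (45.4%) had no protein-coding start, 334 had 1, and 34 had 5 or more. Only 37 intervals had no gene start of any class.

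Over stretches of equal length the pattern was the same. In the central 300 kb, 67.5% of intervals had no protein-coding start against 25.9% of the windows of the rest, 39.2% had no lncRNA start against 19.4%, and 42.8% met no protein-coding gene against 13.6%. The central stretch lay wholly inside a single protein-coding gene in 14.2% (12.1 to 16.7) against 5.80% of windows. Whole intervals inside a single gene numbered 57. Starts per Mb fell with interval length, from 3.13 (2.87 to 3.41) at 300 to 500 kb to 1.31 at 500 to 1000 kb, 0.795 at 1 to 2 Mb and 0.647 (0.479 to 0.856) above 2 Mb.

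By number, 423 protein-coding genes under 20 kb, 219 of 20 to 100 kb and 190 of 100 to 300 kb lay at least 50% inside. These were 5.47%, 2.96% and 7.18% of the genes of each class. In the classes of 300 to 500 kb, 500 to 1000 kb and over 1 Mb, 98, 75 and 40 genes did so. Those were 20.6%, 30.6% and 58.0% of each class. By sequence, the share inside was highest for the longest genes, and it is read against the 23.6% of eligible sequence that the intervals cover. Of the sequence of protein-coding genes of 20 to 100 kb, 2.95% lay in the intervals. That share was 19.1% for genes of 300 to 500 kb, 32.8% for those of 500 to 1000 kb and 55.7% for the 69 genes over 1 Mb. The shares are of gene sequence, so a long gene counts by its length.

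**Figure D5:**
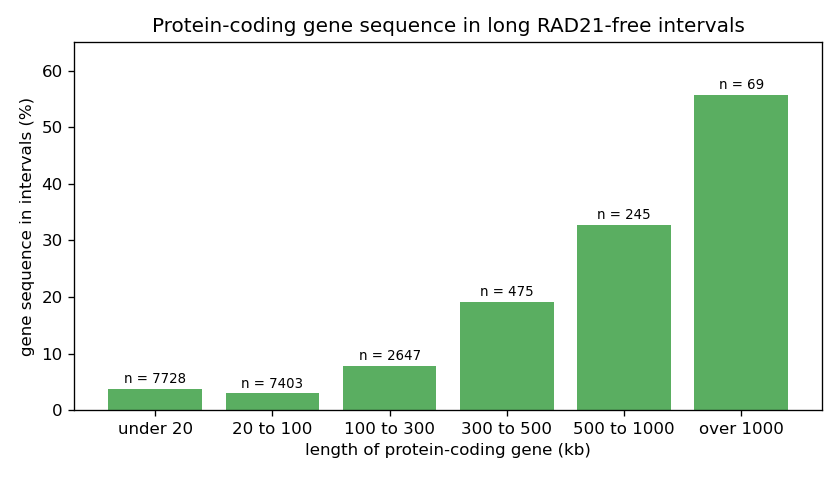
Share of protein-coding gene sequence that lay in long RAD21-free intervals (y axis, %) by gene length in kb (x axis), with the number of genes above each bar. The share runs from 2.95% for genes of 20 to 100 kb to 55.7% for genes over 1000 kb.

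Among the 15 genes with the most sequence inside, RBFOX1, a splicing regulator of neurons, came first with 2432 kb or 98.3% of its length. PTPRD, a receptor phosphatase of synapses, had 2028 kb inside, and MACROD2, an ADP-ribose hydrolase gene, 1997 kb, nearly all in the interval that also held FLRT3. CSMD1 had 1902 kb and DMD, the dystrophin gene, 1558 kb or 69.5%. DMD also carried 28 RAD21 peaks of CHM13 outside its intervals, so a gene could hold long empty stretches and dense ones side by side.

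AGBL4, a tubulin deglutamylase gene, lay wholly inside with 1491 kb and no RAD21 peak of CHM13. GPC5, a glypican gene, had 1465 kb inside, ROBO2, an axon guidance receptor gene, 1461 kb, and DPP10, a potassium channel partner, 1402 kb. FHIT, a fragile-site gene, had 1393 kb and CCSER1 1351 kb. CNTN5, a contactin gene, had 1337 kb and PCDH15, a gene of the hair-cell tip link, 1289 kb.

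Gene families were followed by their symbols, and the share with a start in an interval is read against 5.30% over all protein-coding genes. Among genes of neurons, 20 of 62 adhesion and synapse organiser genes (32.3%, 21.9 to 44.6) and 13 of 40 glutamate and GABA receptor genes (32.5%) started in an interval, spread over 19 and 10 intervals. Their genes were long, with medians of 241.9 and 202.0 kb. Over all protein-coding genes the share was 6.80% at 100 to 300 kb, 14.95% at 300 to 500 kb and 28.57% at 500 to 1000 kb. It was 42.03% for genes over 1000 kb. The part of gene length in the family shares was not tested. The first group included CNTN5, LSAMP, whose product sits on limbic neurons, IL1RAPL1 and LRRC4C, and the second GRM7, GRID1 and GRM8. Of these, GRM7 and LRRC4C had most of their sequence inside but their starts outside. Potassium channel genes gave 10 of 93 (10.8%), KCNH7 lying wholly inside, and cadherins and protocadherins 10 of 101 (9.90%), among them PCDH11X with 843.4 kb inside, FAT3 and CDH12.

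Genes of sensory and skin families that started in the intervals were gathered in few of them. Olfactory receptor genes gave 100 of 275 (36.4%) in 9 intervals, bitter taste receptors 15 of 24 (62.5%) in 2, and keratin-associated proteins, the matrix proteins of hair, 33 of 94 (35.1%) in a single interval. Clustered genes are not independent of each other, so these shares rest on the number of intervals. The keratin-associated cluster lay in a 1.04-Mb interval of chromosome 21 (chr21:30044993-31086294) with 35 protein-coding starts, the most of any interval, among them KRTAP24-1, KRTAP26-1, KRTAP11-1 and KRTAP13-2. A 0.428-Mb interval of chromosome 12 (chr12:10771686-11199430) held 19 starts with TAS2R14, TAS2R20, TAS2R30 and TAS2R13, and a 0.572-Mb interval of chromosome 6 (chr6:29017647-29589211) held 17 with OR5V1 and OR11A1. A 0.794-Mb interval of chromosome 1 (chr1:158204389-158998428) held 20 starts, among them the CD1 antigen-presenting genes and olfactory receptors such as OR6N1. None of these 4 held a peak of any other list.

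Cancer-testis antigen genes of X gave 18 of 87 (20.7%, 13.5 to 30.4) in 7 intervals, where 125 of all 805 protein-coding genes of eligible X (15.5%) started in an interval, among them SSX2B, MAGEB10, MAGEA4 and SSX1. Developmental transcription factor genes gave 23 of 205 (11.2%, 7.59 to 16.3), with SOX5 wholly inside (1033 kb) and large parts of SOX6 and TSHZ2. ZNF genes gave 38 of 418 (9.09%), with ZNF385D, ZNF804B, ZNF423 and ZNF804A having the most sequence inside, and UDP glucuronosyltransferases, enzymes of drug and steroid conjugation, 3 of 21 (UGT2B17, UGT2B15 and UGT2B10) in a single interval. Defensin genes gave 0 of 39. The list by the prefix of ribosomal protein genes gave 2 of 91 (2.20%, 0.605 to 7.66), and of these RPS6KA6 encodes a kinase and not a ribosomal protein, while RPL6 is one.

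Of the 899 long intervals, 274 had another long interval next to them with a single RAD21 peak between. How many would be neighbours given the unequal shares of the chromosomes was not tested. The 899 intervals formed 744 chains, of which 625 were a single interval, 89 held 2, 26 held 3, 2 held 4 and 2 held 5. The longest chain spanned 5.07 Mb on X (chrX:89759536-94831271) with 5 intervals, the starts of TGIF2LX, PABPC5, PCDH11X, NAP1L3 and FAM133A, and no RPE-1 RAD21 peak. The other chain of 5 spanned 2.44 Mb on chromosome 18 (chr18:32158556-34595639) with 7 starts, among them ASXL3, NOL4 and DTNA, and 1 RPE-1 RAD21 peak. The chain on chromosome 14 (chr14:81625746-85025989, 3.40 Mb) held no protein-coding start, and that on 11 (chr11:98070511-100561997, 2.49 Mb) held CNTN5. All but 1 of the 4 isolated peaks of the X chain overlapped SA1 and SA2 of CHM13.

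On the other build, CHM13 v1.0, which is the genome sequence of these cells, the RAD21 list of CHM13 cells has 74116 peaks on these chromosomes and left 1070 intervals of 300 kb or more, against 1063 between the 73739 peaks of hg38 before the filters on N and centromeres. They added up to 899.2 Mb against 791.5 Mb.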

How the data were processed

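The values are positions of peaks in 6 reference lists on hg38 and the RAD21 list of CHM13 cells on CHM13 v1.0; the other 5 lists on CHM13 v1.0 were not used here. To make the deposited lists, the authors used bwa mem for alignment, samtools to drop secondary and supplementary alignments, macs for peaks of each replicate and GenomicRanges to merge replicates, keeping loci seen in at least 2. Their methods state this for CHM13 v1.0 and do not describe hg38, which the submitters' processing notes name beside bcl2fastq 2.20, BWA, SAMtools and MACS2. The deposited lists hold no heights or counts.

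Overlapping peaks were merged before intervals were measured. Peaks were assigned by their centre, genes (GENCODE 44) by their start, and densities are per Mb without N. Centromere bands of hg38 were entered by hand from the cytogenetic map, rounded to 0.1 Mb, and checked against clusters of the degenerate CENP-B box in the sequence, which overlapped the band on all 23 chromosomes. Windows of 300 kb of the rest served as background. No test over samples was possible. Named were the 10 longest intervals and their gene starts, the intervals with most peaks of a list, the 15 genes with most sequence inside and up to 4 genes per family, of which a few are not reported here; the isolated peaks of chains, the clusters richest in genes and the G+C-rich interval were picked after their values were seen. The intervals, gene lists and comparisons were chosen with earlier results of these data known. The functions were tested on simulated data. Software was samtools 1.23.1 and Python 3.11.15 with scipy 1.17.1, numpy 2.4.6, pysam 0.24.0, matplotlib 3.10.9 and pandas 2.3.3. Alternatives concerned the length threshold, centromere rule, N, peak selection, peak assignment and the rest.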

Additional observations from a re-analysis of the deposited data

How the results depend on the processing

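The number of intervals, 899, became 1602 at a threshold of 200 kb, 452 at 500 kb and 151 at 1000 kb, the last with 240.6 Mb in place of 619.1 Mb; under the other centromere, N and peak choices it stayed between 824 and 1054. Against RAD21-free intervals of 50 to 300 kb as the rest, the density ratio reversed for RPE-1, to 2.72 (RAD21), 4.62 (SA1) and 3.00 (SA2), and became 0.233 for SA1 and 0.370 for SA2 of CHM13 and 0.251 for protein-coding starts (the last added after seeing the data); this rest leaves out the RAD21 peaks, with which nearly all peaks coincide. With intervals of at least 500 kb the SA1 ratio of CHM13 was 0.00351 and the protein-coding ratio 0.121, and at 1000 kb they were 0.00316 and 0.0972, with 0.0554 for SA1 and 0.0317 for SA2 of RPE-1. Leaving out 100 kb at each end gave 0.00385 for SA1 of CHM13. Genes wholly inside gave 0.140 and leaving out olfactory receptors 0.165. The reversal for RPE-1 also depends on the choice of intervals, and the cause of these shifts was not tested. The other 51 of 70 alternatives stayed within the counting interval of a ratio or within 1.5 times a count. No paired analysis was possible because each list pools its replicates. Peak lists carry no depth, so a stretch without a peak may hold cohesin below the calling threshold, and unmappable or, in CHM13, deleted sequence was not examined.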
